A study of Mus musculus with 38 samples.

Results

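The circadian clock genes examined here were 10 genes of the molecular clock (Arntl, Clock, Npas2, Per1, Per2, Per3, Cry1, Nr1d1, Nr1d2 and Dbp) in brown adipose tissue of C57BL/6J mice. They were found by their gene names in the scanner files, and all 10 were present among 29411 gene names on a one-colour Agilent expression array. Mice weaned at 3 to 4 weeks of age were kept in a photoperiod of 12 h light and 12 h dark with free access to food and were given 1 of 5 diets. The LFC group received a diet with 10% of calories from fat and the HFC group a high fat, high sucrose diet with 60% of calories from fat. The HF5, HF20 and HF75 groups received the same high fat diet together with 5, 20 or 75 µg of KAL-1, an aqueous plant formulation. LFC and HFC tissue was profiled at 10 time points (Days 6, 10 and 14 and, every 3 weeks, Weeks 0 to 18) and the KAL-1 groups at the 6 time points from Week 3 onward, with 1 array for each group and time point and 38 arrays in all. Day 14 and Week 0 have labels of their own and were kept apart, but the study's methods count the weeks from Day 14, so they were also joined as 1 time point in the tests of HFC against LFC and among time points, which changed no call of a member. The series is described as holding 3 biological replicates, but each combination of group and time point had 1 array here. Groups held 30 mice and 5 mice were killed at each interval, but the labels do not say whether an array carried the RNA of 1 mouse or of several, and give neither the sex of the mice nor the hour at which tissue was taken. The part of that hour in the values below was not tested, and in bulk tissue fewer cells of a type and less RNA per cell cannot be told apart.

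The mammalian clock is a transcriptional feedback loop. ARNTL (BMAL1) pairs with CLOCK, or with its relative NPAS2, and the pair binds E-box elements to switch on the Per and Cry genes, Nr1d1, Nr1d2 and Dbp. PER and CRY proteins then inhibit the pair, while NR1D1 and NR1D2 (REV-ERB alpha and beta) repress Arntl and Npas2 through ROR elements. In peripheral tissues, brown fat included, Arntl and Npas2 messages therefore peak at the opposite phase of the day to those of Nr1d1, Dbp and the Per genes. DBP and its relatives TEF and HLF activate D-box elements, at which NFIL3 (E4BP4) acts as a repressor.

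Promoter sequences of RefSeq (build GRCm38.p6, 250 bases before to 50 bases after a start site) were held for 9 of the 10 genes, in 13 windows, and were searched on both strands for the E-box CACGTG, the E-box variant CACGTT, the core AGGTCA of the ROR element, the D-box TTATGTAA and the cAMP response element TGACGTCA. Of 32851 windows of all genes, 7.15% held CACGTG, 4.68% CACGTT, 16.3% AGGTCA, 0.938% TTATGTAA and 1.79% TGACGTCA. No window was held for Per2, which was not searched. CACGTG was found in 2 of the 9 genes searched (Per1, Cry1), CACGTT in 2 (Cry1, Nr1d1), AGGTCA in 4 (Arntl, Clock, Per1, Nr1d2), TTATGTAA in 1 (Per3) and TGACGTCA in 0. These are counts of genes, some with more than 1 window, whereas the shares above are of windows. The windows of Npas2 and Dbp held none of the 5 motifs, which says only that these letters are not in these windows. The stretches below, 30 bases each with the motif in capitals and written 5′ to 3′ along the gene, show the elements of both arms of the loop, and those of Tef are shown because its signal followed that of Dbp most closely.
Arntl, ROR core, chr7:113207531-113207560, plus strand: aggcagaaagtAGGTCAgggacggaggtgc
Per1, E-box, chr11:69098772-69098801, plus strand: gcacccaagtcCACGTGcagggatgtgtgt
Cry1, E-box, chr10:85185096-85185125, minus strand: gtgccggtggtCACGTGgggtgcatgccgc
Nr1d1, E-box variant on the opposite strand, chr11:98775387-98775416, minus strand: gcacagatctcAACGTGccggctgctggaa
Per3, D-box, chr4:151044853-151044882, minus strand: ccgacccgcgcgTTATGTAAggtactcggg
Per3, a further D-box, chr4:151044806-151044835, minus strand: acccgcccgcggTTATGTAAcccccgccgt
Tef, E-box, chr15:81802535-81802564, plus strand: tgctgtggctcCACGTGctgcagctggcac
Tef, E-box of a further start site, chr15:81811265-81811294, plus strand: acctggcccagCACGTGtctacatcgtttg

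Signals are given as log2 of the processed signal minus log2 of the array's own 75th percentile (log2 units), so that a value of 0 equals that percentile. Since probes differ in how strongly they bind, a gene's value is compared here with its own values on other arrays and not with that of another gene. The 75th percentile itself ran from 35.1 to 1209 intensity units. It exceeded 600 units on 11 arrays, called bright below (4 of 10 LFC, 2 of 10 HFC, 0 of 6 HF5, 4 of 6 HF20 and 1 of 6 HF75 arrays), and stayed at or below 430 units on the other 27, called dim. The brown adipocyte markers were high on 37 arrays, with a summed level of 7.05 to 10.4 log2 units over the 10 listed genes. On the HF75 Week 3 array that sum was 3.22, with Ucp1, the uncoupling protein of brown fat, at -3.07 against 3.38 or more elsewhere, and Cidea at -1.78 against 5.58 or more. This array therefore goes against its tissue label, and the HF75 comparison, the pairs of members, the tests among time points and the likeness ranks were also computed without it.

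Over all 38 arrays Arntl, the essential partner in the activating pair, had the widest swing among the members detected on nearly every array. It was well above background on 37 of 38 arrays. Its lowest, median and highest signals were -4.27, -1.22 and -0.12 in LFC, -3.21, -1.12 and 0.14 in HFC, and -2.37, -1.59 and 1.27 in HF5. In HF20 they were -4.30, -2.86 and -0.56, and in HF75 -2.52, -1.79 and -1.31. The 5 groups overlapped, and the extremes were the HF20 Week 15 array at the low end and the HF5 Week 6 array at the high end. Arntl lay lower on bright arrays (median -3.05, n = 11) than on dim ones (median -1.31, n = 27). Within each class its range was not the widest: 4.13 on bright and 3.72 on dim arrays, against 4.74 and 3.85 for Dbp. Per2 spanned 3.87 on bright and 4.06 on dim arrays.

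Clock, the partner of Arntl, spanned a narrower range. It was well above background on all 38 arrays and ran from -0.49 to 1.58 with a median of 0.83. That range of 2.08 log2 units compares with 5.58 for Arntl over the same 38 arrays. Within the classes Clock spanned 1.66 on bright and 1.95 on dim arrays. Npas2, which can take the place of Clock, was well above background on only 10 arrays (6 HFC, 2 LFC, 1 HF20, 1 HF75 and 0 HF5). The 2 highest Npas2 signals were -2.06 at Week 12 and -2.12 at Week 18, both in HFC. On bright arrays its median was -7.33 and on dim arrays -4.65, and its values on the other 28 arrays lay at or near the background of the array.

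Among the inhibitors, Per1 and Per2 were well above background on every array. Per1 had lowest, median and highest signals of -0.67, 1.88 and 3.08, from the LFC Week 3 array to the LFC Day 10 array. Per2 ran from -3.04 on the HFC Day 10 array to 1.29 on the LFC Week 6 array, with a median of -0.20. Low Per2 was shared by a few arrays of different groups: among them HF5 Week 6 at -2.77, HF20 Week 6 at -1.89 and LFC Week 3 at -1.68. A further Per2 probe, well above background on 34 arrays, correlated with the one used at only r = 0.09. Per3 was well above background on 16 arrays, 11 of them bright, and ranged from -5.93 to -2.43. Cry1, well above background on 27 arrays, ranged from -6.38 on HF20 Week 6 to -1.53 on HF75 Week 15, with a median of -3.60.

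Nr1d1 and Nr1d2 encode the nuclear receptors that repress Arntl. Nr1d1 ran from -1.45 on the HF20 Week 18 array to 1.49 on the LFC Day 6 array, with a median of 0.17. Nr1d2 ran from -0.20 on HF5 Week 6 to 1.96 on HF75 Week 3, or to 1.90 on HFC Week 0 without that array, with a median of 1.32. Both were well above background on all 38 arrays. The 2 further Nr1d1 probes, above background on 29 and 30 arrays, correlated with the one used at r = 0.27 and r = 0.70.

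Dbp, the output gene of the loop that encodes a D-box activator, was well above background on all arrays and saturated on 1 (LFC Week 9), where its value is a lower bound. Its lowest, median and highest signals were 2.12, 4.39 and 6.02 in LFC and 1.66, 4.86 and 5.52 in HFC. In HF5 they were 2.56, 4.52 and 5.78, in HF20 3.51, 5.05 and 6.39, and in HF75 3.75, 4.41 and 5.98. The groups again overlapped along most of the range. The 3 arrays lowest in Dbp (HFC Day 10 at 1.66, LFC Week 15 at 2.12 and HF5 Week 6 at 2.56) came from 3 different groups and time points.

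**Figure D1:**
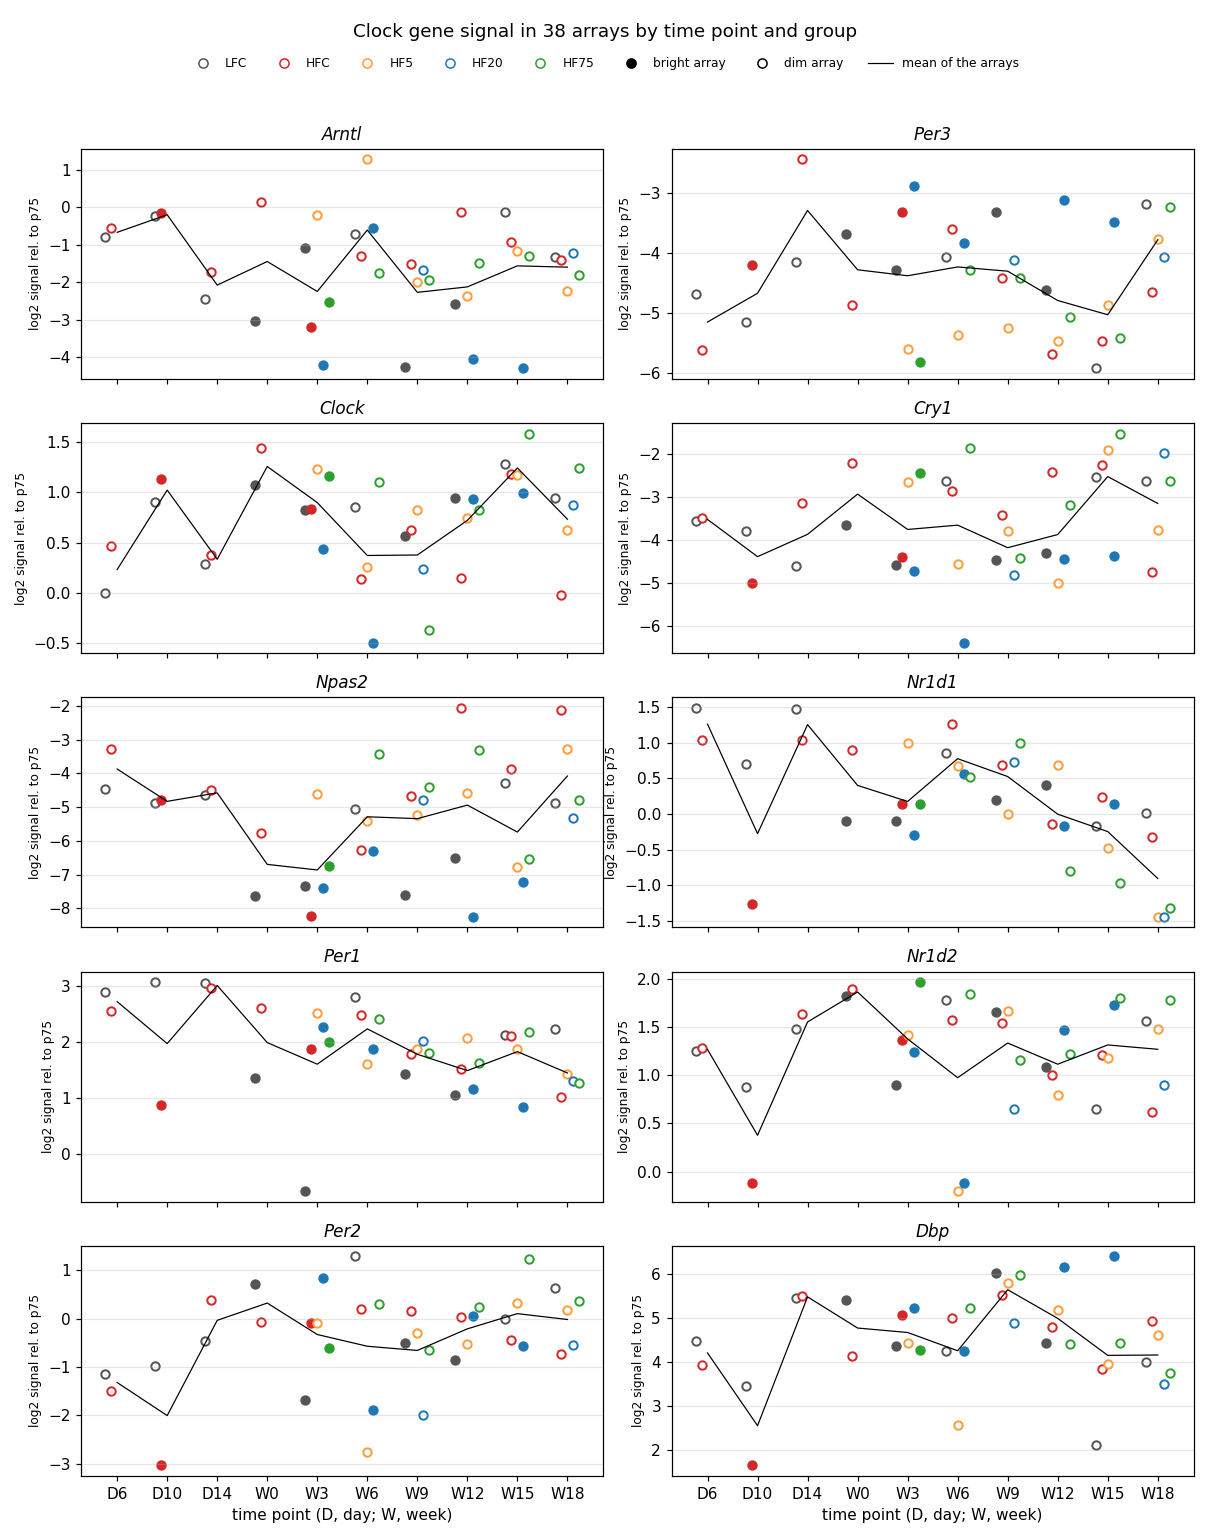
Signal of each clock gene (y axis, log2 relative to the array's 75th percentile, p75) on all 38 arrays by time point (x axis); colours mark the diet group, filled points the 11 bright arrays, open points the 27 dim arrays, and the line joins the means over the arrays of a time point. Arntl spans -4.30 to 1.27 and Dbp 1.66 to 6.39 with the groups overlapping, and Nr1d1 is lowest at Week 18.

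Arntl and Dbp moved in opposite directions from array to array. The 3 arrays lowest in Dbp carried high Arntl: -0.17 on HFC Day 10, -0.12 on LFC Week 15 and 1.27 on HF5 Week 6. At the other end, the 3 arrays highest in Dbp carried low Arntl: -4.30 on HF20 Week 15 (Dbp 6.39), -4.06 on HF20 Week 12 (Dbp 6.15) and -4.27 on LFC Week 9 (Dbp at least 6.02). All 3 were bright arrays, and the lowest Arntl on a dim array was -2.44. Over 38 arrays Pearson's r was -0.73 and Spearman's rho -0.74, each with a permutation p of 1e-05, the smallest that 100000 permutations can give, and an adjusted p of 0.000225 over the 45 pairs of members. Without the 2 arrays farthest from the median of Arntl, r was -0.67. It was -0.70 within the 27 dim arrays, -0.86 within the 11 bright arrays and -0.73 with each time point's mean subtracted. This pair stayed past the threshold under all 11 alternatives, with r between -0.86 and -0.67. One of them left out the HFC Day 10 array, which had the most flagged spots, and gave -0.74. Within groups r was -0.85 in LFC (n = 10), -0.56 in HFC (n = 10), -0.86 in HF5 (n = 6), -0.86 in HF20 (n = 6) and -0.04 in HF75 (n = 6), where Arntl spanned 1.22 log2 units against 3.36 to 4.14 in the others. Without the HF75 Week 3 array the pooled r was -0.74. On the HF75 arrays of Weeks 9, 12 and 18 the lowest signal called well above background was -2.18, -2.75 and -2.47. Arntl was at -1.94, -1.50 and -1.81 there, so much lower levels could not be seen. That limit was -6.11, -3.57 and -4.52 on the HF75 arrays of Weeks 3, 6 and 15. It was not high in HF75 alone: on the HF5 arrays of Weeks 9, 12 and 18 it was -2.94, -3.16 and -1.71. Arntl still spanned 3.64 log2 units in HF5. The part of this limit in the narrow span of Arntl in HF75 was not tested.

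The difference Dbp minus Arntl on the same array does not depend on how the array was scaled, and is read only between arrays. It was 1.29 on HF5 Week 6, 1.83 on HFC Day 10 and 2.24 on LFC Week 15. It was 10.2 on HF20 Week 12, 10.7 on HF20 Week 15 and at least 10.3 on LFC Week 9, where Dbp was saturated. The median was 6.10 over all arrays, 8.28 over bright and 5.56 over dim arrays. Among the arrays just named, skeletal muscle markers were high on a single array at each end of this scale. Their summed level was 8.62 on HFC Day 10 and 8.67 on HF20 Week 15, against a median of 3.73 over all arrays. At the high end it was also 5.27 on HF20 Week 12 and -0.18 on LFC Week 9. On HF20 Week 3, where Dbp minus Arntl was 9.43, the muscle sum was 8.51. The highest sum of all, 10.0 on HF75 Week 12, came with a difference Dbp minus Arntl of 5.89. On LFC Week 15 and HF5 Week 6, also at the low end, the muscle sum was 3.54 and 3.14. Over all arrays this sum gave r = -0.09 with Arntl and -0.05 with Dbp. Within groups its r with Arntl was 0.37 in LFC, 0.62 in HFC, -0.59 in HF5, -0.94 in HF20 and 0.48 in HF75. With Dbp it was -0.33, -0.70, 0.61, 0.76 and -0.14 in the same order. The part of muscle in the pair Arntl and Dbp was not tested.

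**Figure D2:**
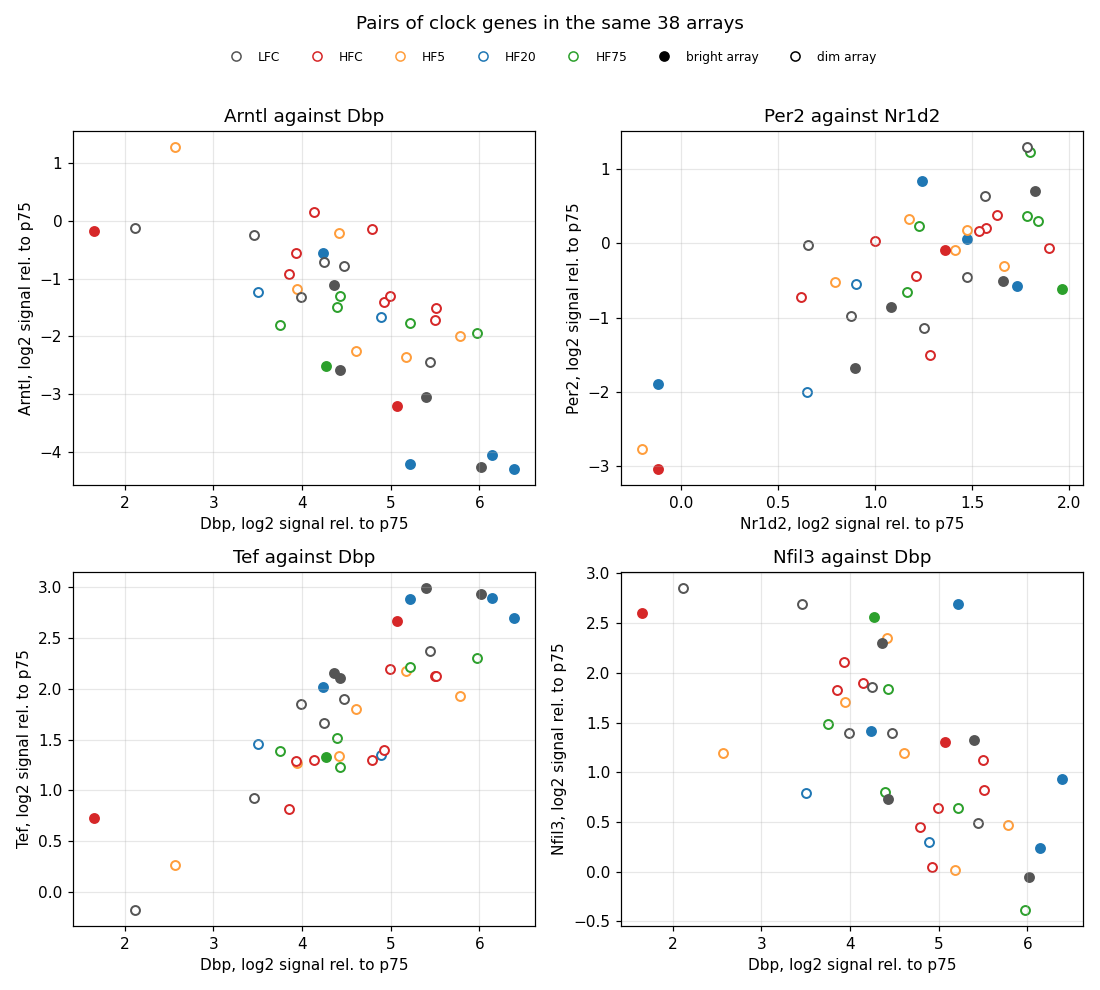
Signals of 4 pairs of clock genes on the same 38 arrays (both axes, log2 relative to the array's 75th percentile, p75); colours mark the diet group and filled points the bright arrays. Arntl falls with Dbp (r = -0.73), Per2 rises with Nr1d2 (r = 0.76), Tef rises with Dbp (r = 0.84) and Nfil3 falls with Dbp (r = -0.64).

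The other targets of the loop did not all follow Dbp. Nr1d2, the REV-ERB beta gene, opposed Arntl with r = -0.46 (rho -0.40, adjusted permutation p = 0.0163) and rose with Dbp at r = 0.55 (rho 0.37, adjusted permutation p = 0.00298). By rank neither passed, with an adjusted permutation p of 0.0643 and 0.0740. For Nr1d2 against Arntl r was -0.41 within dim and -0.81 within bright arrays. Per3 opposed Arntl at r = -0.56 (rho -0.52, adjusted permutation p = 0.00158). Per3 was well above background on all 11 bright but only 5 of the 27 dim arrays, so that value rests in large part on background. For this pair r was -0.36 with signals raised to the background limit, and it turned to 0.61 after normexp background correction. Per2 against Arntl gave r = -0.34 (rho -0.22, adjusted permutation p = 0.102), with -0.33 within dim and -0.84 within bright arrays. Nr1d1 and Per1, also targets of the activating pair, gave r = 0.14 and r = 0.22 with Arntl (adjusted permutation p = 0.519 and 0.300). Arntl and Npas2, which share repression by the REV-ERB proteins, gave r = 0.53 over all arrays (rho 0.39, adjusted permutation p = 0.00335). By rank the adjusted permutation p was 0.0643, r within the dim arrays was -0.07, and with signals raised to the background limit r was 0.38. Npas2 was well above background on only 2 of the 11 bright and 8 of the 27 dim arrays, so these values mostly set Arntl against background.

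In all, 14 of the 45 pairs passed an adjusted permutation p of 0.05, 9 of them positive and 5 negative, and 10 of these 14 still passed without the 2 arrays farthest from the median of the first gene. Without the HF75 Week 3 array 13 of the 14 passed. By Pearson's r, Per2 and Nr1d2 formed the closest positive pair, with r = 0.76 (rho 0.62, adjusted permutation p = 0.000225), 0.75 within dim, 0.78 within bright arrays and 0.62 without the 2 arrays farthest from the Per2 median. The arrays HFC Day 10, HF5 Week 6 and HF20 Week 6 were low in both: their Nr1d2 signals were -0.12, -0.20 and -0.12. HF20 Week 9 and LFC Week 3 were also low in Per2, but their Nr1d2 signals were 0.65 and 0.90. Without the HFC Day 10 array r for Per2 and Nr1d2 was 0.71. Cry1 rose with Per2 (r = 0.58, rho 0.55, adjusted permutation p = 0.00144), with Nr1d2 (r = 0.55, rho 0.51, adjusted permutation p = 0.00231) and with Clock (r = 0.58, rho 0.57, adjusted permutation p = 0.00144). The last of these turned to -0.59 after normexp correction, and that of Cry1 with Nr1d2 to -0.51. Per1 rose with Nr1d1 (r = 0.57, adjusted permutation p = 0.00144), the closest positive pair by rank (rho 0.66), more closely within dim (r = 0.73) than within bright arrays (r = 0.22), a difference that was not tested. Nr1d1 and Nr1d2, which act alike on Arntl, gave r = 0.08. With the mean over all probes of a gene in place of the brightest, r for Per2 and Nr1d2 was 0.28.

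**Figure D3:**
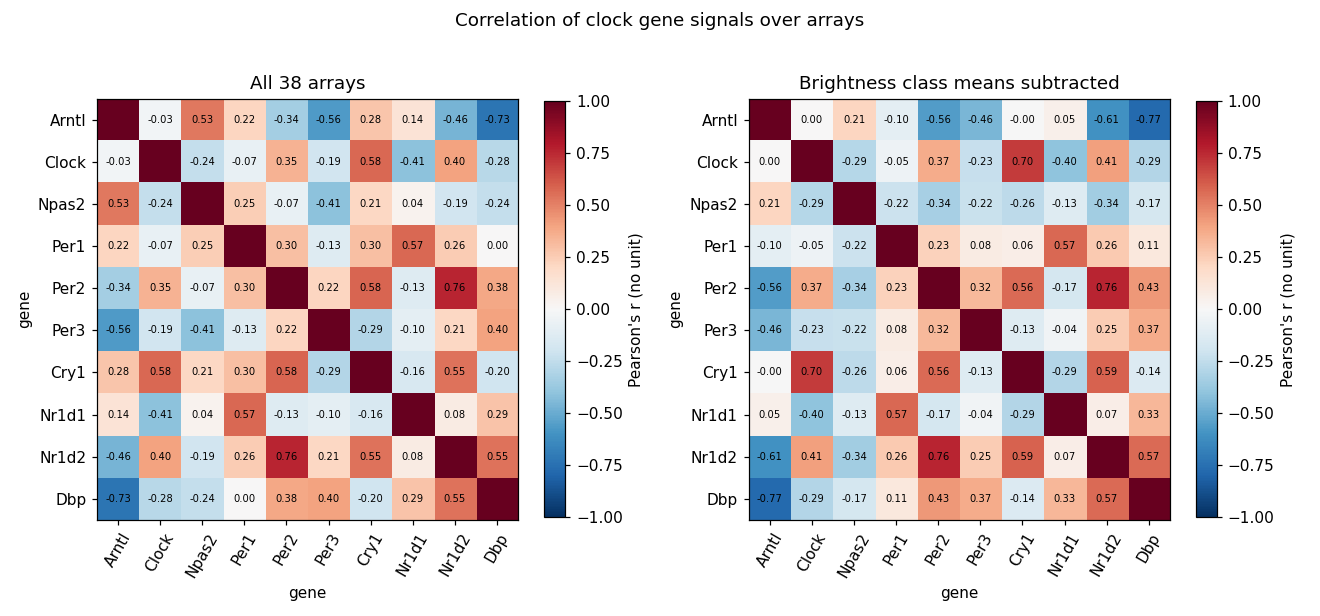
Pearson's r between the signals of each pair of clock genes (both axes, genes; colour and printed value, r) over 38 arrays, at left as measured and at right with the means of the bright and the dim arrays subtracted. Arntl is negative with Dbp in both panels (-0.73 and -0.77), and its positive r with Npas2 falls from 0.53 to 0.21.

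The genes whose signals were most like those of Arntl and Dbp were ranked over the 38 arrays by Pearson's r after the mean of the bright and of the dim arrays had been subtracted. This is a description over arrays that share brightness, time point and diet. Of 20850 genes compared, Dbp itself had the lowest r with Arntl (-0.77). Tef, the related D-box activator, was next lowest (-0.75), Nr1d2 ranked 4 from the bottom (-0.61) and Per2 ranked 7 (-0.56). Per3, well above background on only 16 of the 38 arrays, ranked 60 (-0.46). The other non-members at that end were 4930447J18Rik (-0.68), Ifrd2 (-0.58), LOC100045033 (-0.57) and Pus7l (-0.55). That order depends on the subtraction. Without it r with Arntl was -0.81 for Tef, -0.74 for 4930447J18Rik and -0.73 for Dbp, and within the dim arrays it was -0.74 for Tef and -0.70 for Dbp. At the positive end were, among others, A630005I04Rik (0.67), Dok4 (0.64), a predicted transcript without a gene symbol (0.59) and Dnmt3b (0.59). For Dbp the order began with Tef at r = 0.88, followed by EG627782 (0.63), Mycbp (0.61), Ppp1r3f (0.61) and Arsb (0.60), and Nr1d2 ranked 10 (0.57). Its lowest values were those of Arntl (-0.77) and of Nfil3 (-0.68), the repressor at D-boxes, ahead of A630005I04Rik (-0.61), a further predicted transcript (-0.60), Plekhg1 (-0.60) and Dnmt3b (-0.59). Without the HF75 Week 3 array Dbp and Tef were still lowest with Arntl (-0.78 and -0.76) and Tef highest with Dbp (0.89). Nr1d2 then ranked 3 with Dbp (0.61), and Plekhg1 (-0.68) stood next to Arntl at the low end, ahead of Nfil3 (-0.68). Tef followed Dbp within dim (r = 0.88) and within bright arrays (r = 0.90), and Nfil3 opposed it in both (-0.71 and -0.64). On the LFC Week 15 array, where Dbp was 2.12, Tef had its lowest signal (-0.17) and Nfil3 its highest (2.85).

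Levels were then compared among the 10 time points with all 38 arrays and the diet group in the model. Nr1d1 was the only member past an adjusted p of 0.05 (limma moderated F, adjusted p = 0.0370), against 6.04% of all genes tested. Its mean signal was 1.26 at Day 6, -0.28 at Day 10, 1.25 at Day 14 and 0.40 for Week 0 (n = 2 each). It was 0.18 ± 0.49 for Week 3, 0.78 ± 0.30 for Week 6, 0.52 ± 0.41 for Week 9, -0.00 ± 0.58 for Week 12, -0.25 ± 0.49 for Week 15 and -0.91 ± 0.70 for Week 18 (SD, n = 5 each). The means did not fall steadily, and the lowest was that of Week 18. At Week 18 the signals were 0.01 in LFC, -0.33 in HFC, -1.44 in HF5, -1.45 in HF20 and -1.33 in HF75. Every Week 18 array was below every Week 6 array, where the lowest was 0.52. Those weeks have the lowest and the highest mean among the time points with n = 5. The share of all genes whose arrays are parted in the same way was not computed. The call was lost after normexp correction (adjusted p = 0.0898), with the slide as a random block (0.0872) and with the mean over all 3 Nr1d1 probes (0.554), and it held without the HF75 Week 3 array (0.0446) and with Day 14 and Week 0 joined (0.0423). Each of the 12 scan days held arrays of 1 time point only, so that scan day and time point cannot be told apart.

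Dbp (adjusted p = 0.126) and Clock (0.143) had the next smallest p (0.142 and 0.169 without the HF75 Week 3 array), and 3 of 10 members against 28.9% of all genes were under an unadjusted p of 0.05. Mean Dbp was 2.56 at Day 10 and 5.47 at Day 14 (n = 2 each) and 5.64 ± 0.46 at Week 9 (SD, n = 5). Mean Clock was 0.23 at Day 6 and 1.24 ± 0.22 at Week 15. For Arntl the adjusted p was 0.472, and its spread within a time point, such as -4.30 to -0.12 at Week 15, was wide. Among 25 further clock genes tested, chosen from the wider network (1 more was on the array but did not pass the filter), 1 passed. This was Nfil3, with a limma adjusted p of 0.00768 (0.0168 without the HF75 Week 3 array, 0.0100 with Day 14 and Week 0 joined) and means of 2.64 on Day 10 (n = 2), 2.24 ± 0.55 in Week 3, 0.23 ± 0.47 in Week 9 and 1.83 ± 0.69 in Week 15 (SD, n = 5). Day 10, where mean Nfil3 was highest, had the lowest mean Dbp, and Week 9, where it was lowest, had the highest.

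The first question on diet was whether the high fat diet shifted the clock genes. HFC was set against LFC over 10 time points, with time point as a block. No member passed an adjusted p of 0.05, and 0% of 21852 genes did. At an unadjusted p of 0.05, 1 member and 7.07% of all genes passed. That member was Npas2, at a mean of -4.56 in HFC and -5.72 in LFC, a difference of 1.17 ± 0.52 (SE; limma adjusted p = 0.640) with HFC higher at 8 of 10 time points. Npas2 was well above background on 6 HFC and 2 LFC arrays and would not have passed the filter of 6 arrays without HFC. Most of its LFC values lie at background, so that the size of this difference is not a measured level, and it was 0.40 after quantile normalization. Arntl differed by 0.58 ± 0.49 (adjusted p = 0.679, 95% interval -0.50 to 1.66; 0.29 without Week 0, 0.88 without Week 3 and 0.19 with a term for brightness) and Dbp by 0.04 ± 0.33 (adjusted p = 0.966, interval -0.67 to 0.76). Over the 10 members the median difference was -0.03, against 0.06 over all genes tested, with 5 members higher and 5 lower. Single time points moved by far more than these means. HFC minus LFC for Arntl was 3.19 for Week 0, 2.76 for Week 9, 2.44 for Week 12 and -2.11 for Week 3. In each of these pairs the LFC array was bright, and for Week 3 the HFC array too.

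At Day 10 the gap of HFC minus LFC varied widely over the members. It was -2.21 for Per1, -2.06 for Per2, -1.97 for Nr1d1, -1.80 for Dbp, -1.21 for Cry1 and -0.99 for Nr1d2. For Arntl it was 0.07, for Npas2 0.08, for Clock 0.23 and for Per3 0.96, where the LFC signal was not well above background. All these gaps are values of 1 array a group, with no test. The share of all genes lower on the HFC array was not computed. The HFC array was bright and the LFC array dim, and the high muscle marker sum of the HFC array is given above. On the HFC array 1079 spots carried outlier flags, against 19 to 73 on each of the other arrays. The part of these in the gaps was not tested. Over Weeks 3 to 18 alone, again 0 members passed, against 0.00915% of all genes, and 0 were under an unadjusted p of 0.05 against 14.4%. Dbp was then higher in HFC by 0.66 ± 0.50 (limma adjusted p = 0.493), at 5 of 6 time points. Npas2 was well above background on 3 of 6 HFC and 0 of 6 LFC arrays of these weeks, and no size is given for it. The 10 members had a median difference of 0.14, against 0.07 over all genes.

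The second question was whether KAL-1 moved the clock genes of mice on the high fat diet. Each dose was compared with HFC over Weeks 3 to 18, and the 3 comparisons share the HFC arrays. No member passed at any dose, and 0% of all genes did. For HF5, 0 members were under an unadjusted p of 0.05 (5.46% of all genes). Npas2 and Per3 were not well above background on any HF5 array. The other 8 members differed by -0.44 (Dbp) to 0.33 (Clock), and the median of all 10 fitted values was -0.25 against 0.01 over all genes. Arntl differed by 0.30 ± 0.69 (limma adjusted p = 0.951) and Dbp by -0.44 ± 0.50 (adjusted p = 0.890). For HF75, 0 members were under it (9.15% of all genes). Clock differed by 0.44 ± 0.26 (adjusted p = 0.572), higher at 5 of 6 time points, and Nr1d1 by -0.55 ± 0.30 (adjusted p = 0.566), lower at 5 of 6. Arntl differed by -0.39 ± 0.69 (adjusted p = 0.827) and Dbp by -0.18 ± 0.50 (adjusted p = 0.895), and 0 members passed without the HF75 Week 3 array. Clock then differed by 0.43, Nr1d1 by -0.62, Arntl by -0.34 and Dbp by -0.08.

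The HF20 differences were wider. Npas2 was at -6.54 in HF20 and -4.54 in HFC, a fitted difference of -2.01 ± 0.81 (limma adjusted p = 0.121). It was well above background on only 1 of 6 HF20 and 3 of 6 HFC arrays and passed the filter through HFC, so the size of this difference rests in large part on values at background. Per3, well above background on 4 of 6 HF20 and 2 of 6 HFC arrays, was at -3.58 and -4.53, a difference of 0.95 ± 0.45 (adjusted p = 0.146). Arntl was at -2.67 and -1.42, a difference of -1.25 ± 0.69 (adjusted p = 0.194), and Cry1 differed by -1.10 ± 0.60 (adjusted p = 0.188). Dbp differed by 0.21 ± 0.50 (adjusted p = 0.772). Thus 2 of 10 members were under an unadjusted p of 0.05, against 33.2% of all genes, and the median difference was -0.31, against -0.20 over all genes. Brightness moved with this comparison, since 4 of 6 HF20 arrays were bright against 1 of 6 HFC arrays of these weeks. A model that held the brightness class gave -0.70 for Npas2 and 0.47 for Per3 (limma adjusted p = 0.973 for both), -0.14 for Arntl, -0.28 for Cry1 and -0.34 for Dbp. Without Week 3, where the HFC array was bright too, 3588 genes passed. Npas2 was among them (adjusted p = 0.0479), with 1 of the 5 HF20 arrays left well above background.

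**Figure D4:**
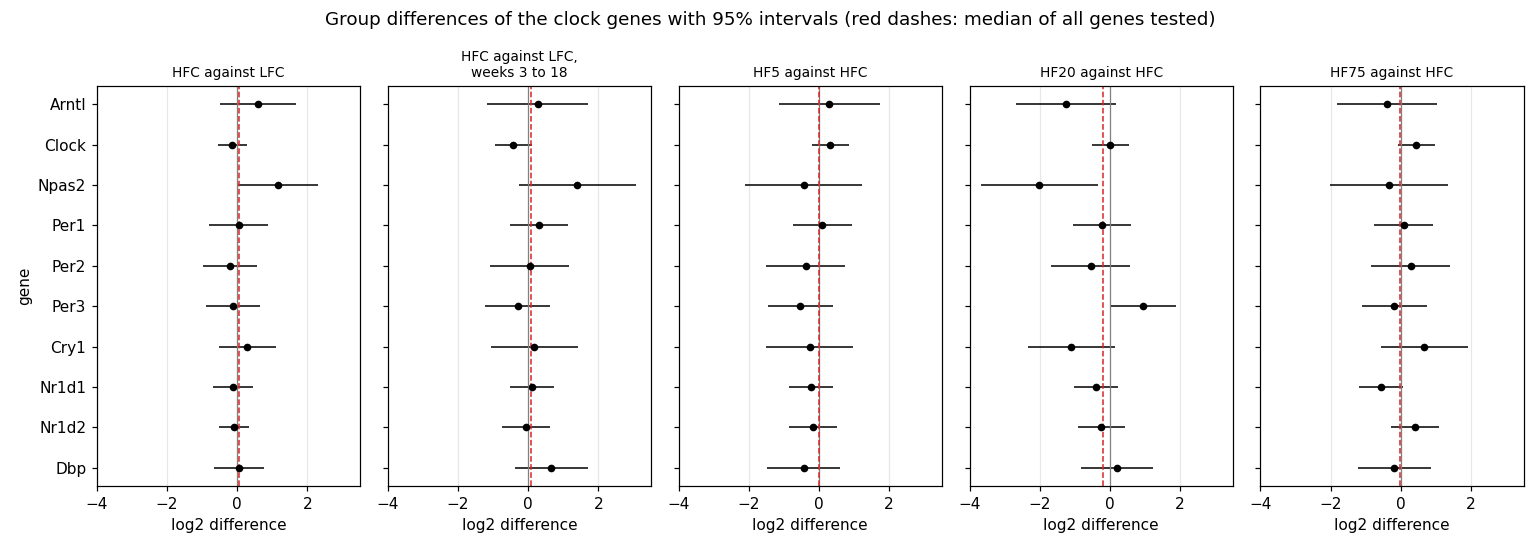
Difference in log2 signal of each clock gene (x axis, log2 units) in 5 comparisons of groups; points are limma estimates, bars 95% intervals of the single gene, and the red dashed line is the median over all genes tested. The intervals of Npas2 in HFC against LFC and of Npas2 and Per3 in HF20 against HFC leave out 0, and no difference passed the adjusted threshold. Npas2 was not well above background on 28 of the 38 arrays, nor Npas2 and Per3 on any HF5 array.

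Of the 25 further clock genes tested, 0 passed an adjusted p of 0.05 in any comparison of groups. For HFC against LFC, genes among those with the smallest p were Wee1, a cell cycle kinase under clock control (0.69 ± 0.37, limma adjusted p = 0.640), and Cry2 (-0.32 ± 0.22). Over Weeks 3 to 18 they included Nfil3 (-0.66 ± 0.31, adjusted p = 0.342) and Prkaa1 (-0.53 ± 0.31). For HF5 against HFC they were Nono (0.49 ± 0.21, adjusted p = 0.822) and the casein kinase genes Csnk1e (0.69 ± 0.37) and Csnk1a1 (0.45 ± 0.26), whose products phosphorylate PER proteins. For HF20 they included Arntl2 (-1.32 ± 0.49, adjusted p = 0.119) and Nampt, a clock-controlled enzyme of NAD synthesis (1.44 ± 0.56). For HF75 they included Ppp1cb (0.58 ± 0.24, adjusted p = 0.538) and Csnk1d (0.55 ± 0.25). The median difference of the 25 genes lay between -0.01 and 0.23 over the 5 comparisons.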

How the data were processed

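The deposited files are scanner output of 38 one-colour Agilent arrays (Cy3), and their intensity values were made by the authors with Agilent Feature Extraction (version 9.1 per the labels, 10.5.1.1 per the file headers). A deposited table of the authors' own log2 fold changes (each group over LFC, time point by time point) was not used. Of the 38 files, 4 (Week 9) carry values rounded to 3 significant digits.

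Control spots and spots with outlier flags were left out, saturated spots kept. Processed intensities were taken to log2, the array's 75th percentile was subtracted and the spots of a probe averaged, and the probe with the highest mean stood for a gene name (40628 probes, 29411 names). Tests covered the genes that were well above background on 6 or more arrays (21852 in the comparisons of groups, 21844 among time points). Group comparisons used lmFit and eBayes of limma 3.58.1 in R 4.3.3, two-sided, with time point as a block and Benjamini-Hochberg adjustment. Each group had 1 array per time point, so the spread is the scatter left after group and time point are fitted. In the comparisons over Weeks 3 to 18 it was shared by all 30 arrays of the 5 groups, the HF75 Week 3 array included. Of these comparisons only that of HF75 was also fitted without that array. Whether arrays hold separate animals is not stated, and p-values measure only the spread between these samples. Correlations used 100000 two-sided permutations of the arrays for each of 45 pairs. Random-block correlations were estimated on every 5th gene. The scripts were tested on simulated data.

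The genes named are all 10 members, the further clock genes that passed a test or else the 3 with the smallest p, and the 5 genes most and least like Arntl and Dbp. Some genes that this rule names are not reported here. Members and lists were chosen with earlier results of these data known. The number of arrays limits the precision.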

Additional observations from a re-analysis of the deposited data

Results flagged for a closer look

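Of 50 sets of values tested (10 members in each of 5 groups), 2 held an array set apart from the others of its group, and chance alone sets apart about 1 in 20. Dbp on the HFC Day 10 array was 1.66, against 3.85 for the next lowest of the 10 HFC arrays, and it was -0.17 after normexp correction. That array had 1079 spots with outlier flags, against 19 to 73 on each of the other arrays. Per2 on the HF5 Week 6 array was -2.77, against -0.52 for the next lowest of the 6 HF5 arrays.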

How the results depend on the processing

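Counts of genes past the threshold were small in the group comparisons and moved with the processing. For HFC against LFC (0 genes) the count was 5 in a fit of all 38 arrays and 0 to 2 on leaving out 1 time point, with 2 without Day 10. For the same groups over Weeks 3 to 18 (2 genes) it was 4 after quantile normalization, 1 with no filter or with the slide as a random block, and 0 after normexp correction, with only genes well above background on every array, with the brightness class, with signals raised to the background limit and on leaving out any of Weeks 3 to 12, 1 on leaving out Week 15 and 2 on leaving out Week 18. Without time point as the replicate block, which pairs the arrays by age only, it was 0. For HF20 (0 genes) the slide block gave 1 and leaving out 1 time point gave 0 to 3588, with 0 to 1 clock genes, the highest of both without Week 3. For HF75 (0 genes) quantile normalization, the stricter filter and the brightness class gave 1 each and leaving out 1 time point 0 to 1, with 1 without Week 12. Among time points the 1319 genes became 43 after normexp correction, 5823 with no filter, 493 with the stricter filter, 3108 with the brightness class, 430 with the slide block, 827 with the scan day block and 6419 with signals raised to the background limit. Of the clock genes, 0 passed there after normexp correction, with the mean over probes or with the slide block, and 3 with signals raised to the background limit, which added Npas2 (adjusted p = 0.0168) and Per3 (0.0190). Of the 45 correlations (14 past the threshold) 8 passed after quantile normalization, 22 after normexp correction and 6 within the dim arrays. The cause was not tested.

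Of the 50 differences of members between groups, 18 kept their sign under every alternative and 32 changed it under at least 1, and 1 (Npas2 in HF20) passed the threshold under at least 1. Dbp in HFC against LFC was -0.24 after normexp correction and -0.14 to 0.25 on leaving out 1 time point. Arntl over Weeks 3 to 18 was -0.47 with the brightness class and -0.23 to 0.74 on leaving out 1. Arntl in HF5 was -0.076 with the brightness class and -0.25 to 0.80 on leaving out 1, and in HF75 0.11 after normexp correction. Per3 in HF20 was -0.48 after normexp correction. Dbp in HF20 was -0.34 with the brightness class and -0.26 to 0.54 on leaving out 1, and in HF75 -0.34 to 0.016. Among correlations, normexp correction gave -0.12 for Arntl and Per1, 0.61 for Arntl and Per3, -0.59 for Clock and Cry1 and 0.96 for Npas2 and Per3, and signals raised to the background limit gave 0.49 for Npas2 and Per3. Arntl and Per1 gave -0.10 with class means subtracted and -0.33 within bright arrays, Arntl and Nr1d1 -0.27 within bright arrays, and Arntl and Npas2 -0.074 within dim arrays. Leaving out the HF75 Week 3 array, joining Day 14 and Week 0 in the test among time points, leaving out the HFC Day 10 array and raising signals to the background limit were chosen after seeing the data. Signal over background limits what can be read from Npas2 and Per3, which were not well above background on any HF5 array.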
